A study of Mus musculus with 26 samples.

Results

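The ADAMTS metalloproteinases measured here are 9 genes, *Adamts9*, *Adamts16*, *Adamts1*, *Adamts3*, *Adamts4*, *Adamts5*, *Adamts6*, *Adamts10* and *Adamts20*. All probe sets that carry one of these symbols in the platform annotation were taken, which gave 29 of the 35556 probe sets of the array, 6 for *Adamts9*, 16 for *Adamts3* and 1 for each other gene. The genes were chosen by their TNF differences and levels on these same arrays, which were known at the time. The same values are described here, so the errors and calls given for the 9 genes set the size of a difference against the spread between arrays and are no independent test of it. No filter on low values was applied, so all 29 probe sets entered the fit.

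Gene expression was measured on 26 Affymetrix mouse gene arrays of neurospheres (NSPs), floating spheres of neural stem cells from the ventricular zone of C57BL/6J mouse embryos at embryonic day 14. NSPs were differentiated toward astrocytes by plating on poly-ornithine in medium with 10% serum, and the untreated arrays of 0 h are the start of this course, against which every difference over the untreated course was taken. TNF-treated NSPs received 50 ng/mL of this inflammatory cytokine at the start of differentiation and were taken at 6, 24 and 48 h (3 arrays each) and at 72 h (2 arrays), whereas untreated NSPs were taken at 0, 6, 24, 48 and 72 h (3 arrays each). No genetic change separated the groups. The model is a serum-containing culture without the other cells of brain tissue, and RNA came from whole wells. The series calls its replicates biological. Whether they came from separate litters is not said, so p-values and errors measure only the spread between these arrays, which may be partly technical. In such bulk RNA, fewer cells of a type and less RNA per cell cannot be told apart.

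ADAMTS proteins are secreted zinc proteases with a metalloproteinase domain of the ADAM type and thrombospondin repeats that hold them in the extracellular matrix. A group of them cleaves the lecticans, the large chondroitin sulfate proteoglycans aggrecan, brevican, neurocan and versican, which bind hyaluronan and fill much of the matrix of the central nervous system. Others process procollagens and the signalling protein reelin, or act on fibrillin microfibrils. Astrocytes are a known source of both lecticans and ADAMTS proteases in the brain, and the family has been studied in injury and inflammation, where this matrix is remodelled.

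Astrocyte and neural progenitor markers had the highest mean levels of the marker lists. Over the arrays, the mean log2 signal of 8 astrocyte markers ran from 10.86 to 12.27 and that of 6 neural progenitor markers from 10.60 to 11.11. Levels of the markers of other neural lineages differed widely within their lists. The mean of 5 oligodendrocyte lineage markers ran from 8.97 to 10.10 and that of 6 neuron markers from 8.12 to 8.62. The highest single values of these 2 lists were those of *Olig1* (12.94) and *Map2* (12.95). The other neuron markers stayed at 9.12 or below on every array. In the oligodendrocyte lineage list *Olig2* and *Pdgfra* reached 12.53 and 9.51, whereas *Sox10* and *Mbp* stayed at 8.25 and 7.80 or below. The 7 microglia markers averaged between 6.40 and 6.91, and the 6 endothelial markers between 6.55 and 7.02, with the leukocyte gene *Ptprc* at 6.16 or below on every array. *Nfkbia*, an NF-κB inhibitor gene that NF-κB itself induces, stood 2.11 higher on the log2 scale in TNF-treated than in untreated NSPs at 6 h (SE 0.143, q = 2.83e-08), and was called at all 4 times. No marker of astrocytes, progenitors, neurons, the oligodendrocyte lineage, microglia, endothelium or mural cells was called with TNF at any time.

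Promoters of 4 of the 9 genes were found in the RefSeq promoter table (GRCm38.p6, 250 bases before to 50 after the start that this table uses). Those of *Adamts9*, which was lower with TNF at every time, and *Adamts1*, whose TNF difference ran the other way, are given 5′ to 3′, *Adamts9* from chr6:92943485-92943784 and *Adamts1* from chr16:85803064-85803363, both on the minus strand. Capitals mark a core of the cAMP response element (TGACG) and GC boxes (GGGCGG), each searched on both strands.
Adamts9: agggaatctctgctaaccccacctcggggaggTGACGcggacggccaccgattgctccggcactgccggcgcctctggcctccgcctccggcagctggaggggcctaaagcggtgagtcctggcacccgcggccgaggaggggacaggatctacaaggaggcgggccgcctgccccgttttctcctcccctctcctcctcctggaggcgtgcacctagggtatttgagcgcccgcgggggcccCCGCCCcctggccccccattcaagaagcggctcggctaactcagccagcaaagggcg
Adamts1: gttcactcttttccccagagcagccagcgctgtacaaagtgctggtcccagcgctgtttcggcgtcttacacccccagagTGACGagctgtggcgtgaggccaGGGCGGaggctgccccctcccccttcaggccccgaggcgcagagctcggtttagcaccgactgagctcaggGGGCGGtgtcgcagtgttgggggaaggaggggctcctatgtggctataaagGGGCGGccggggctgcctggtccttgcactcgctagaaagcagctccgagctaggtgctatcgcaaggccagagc
This core stood 1 time in each promoter, at position -218 in *Adamts9* and at -170 in *Adamts1*, relative to the start. It is held by 20.8% of the 32851 promoters of the table, and the GC box, found 1 time in *Adamts9* and 3 times in *Adamts1*, by 35.7%. Neither the AP-1 motif TGANTCA (7.81% of promoters) nor the NF-κB consensus motif (4.51%) was found in these windows, nor in those of *Adamts3* and *Adamts20*, the other member promoters in the table. These matches are letters in a window and say nothing of binding. All 4 genes lie on the minus strand, where a gene begins at its upper coordinate. The windows of *Adamts9*, *Adamts3* and *Adamts20* lie inside the genes, whose upper coordinates are 92944450, 89883668 and 94432074. For these 3 genes the search therefore did not cover the region before the outermost start.

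Called here means a q-value below 0.05, computed across all 35556 probe sets. Of the 29 member probe sets, 4 were called with TNF at 6 h, 1 higher and 3 lower, where 0.326% of all probe sets were called (0.312% higher and 0.0141% lower). At 24, 48 and 72 h 7, 6 and 6 member probe sets were called, all lower, where 0.863%, 1.04% and 1.15% of all probe sets were called and 0.236%, 0.264% and 0.554% were called lower. Since TNF differences chose the members, nothing is read from these counts. The 6 h count fell to 1 when replicate 1 or 3 of untreated NSPs or replicate 1 or 2 of TNF-treated NSPs was left out. The 72 h count fell to 3 without replicate 1 or 3 of untreated NSPs or without either TNF-treated array. With replicate number as a block, which the arrays of 6 h bore out as a pairing, 8 member probe sets were called at 6 h, all 6 of *Adamts9* with *Adamts1* and *Adamts5* (0.613% of all probe sets).

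Over the untreated course, 12, 22, 21 and 16 of the 29 member probe sets were called at the 4 times after 0 h, where 7.67%, 16.5%, 16% and 22.8% of all probe sets were called. These 4 comparisons share the 3 arrays of 0 h, and the levels belonged to what chose the members, so nothing is read from the counts. They dropped to 7 (without replicate 3 of 0 h) and 5 (without replicate 3 of untreated NSPs at 6 h) at 6 h, and to 11 and 7 at 48 and 72 h without replicate 2 of the later time.

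Groups without overlap were common with so few arrays. Over all probe sets, TNF-treated and untreated arrays did not overlap in 8.55%, 14.2%, 12.2% and 41% of cases at 6, 24, 48 and 72 h, the last with 2 TNF-treated arrays. Untreated arrays of these times and those of 0 h did not overlap in 15.2%, 24%, 22.3% and 28.9%.

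The called probe sets under TNF belonged to *Adamts9*, *Adamts16* and *Adamts5*. The first of these was lower at every time, *Adamts16* was lower at 24 h, and *Adamts5* was higher at 6 h. In the untreated course all 3 genes had risen by 24 h.

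*Adamts9* (chromosome 6, 92772699 to 92944450) encodes a lectican-cleaving protease of large size, the mammalian counterpart of the worm protease GON-1, and is also known for a role in the formation of cilia. On its brightest probe set, 10546430, TNF-treated NSPs had log2 signals of 9.56, 9.76 and 9.88 at 6 h, against 10.47, 10.28 and 10.55 in untreated NSPs. At 24 h the TNF-treated arrays read 9.83, 10.04 and 10.09, against 11.55, 11.14 and 11.40 in untreated NSPs. All TNF-treated arrays lay below all untreated arrays at both times, and the gap was wider at 24 h. At 48 h the values were 9.76, 9.59 and 9.75 in TNF-treated NSPs and 11.05, 10.67 and 11.14 in untreated NSPs. At 72 h they were 9.48 and 9.59 in TNF-treated NSPs and 10.60, 10.17 and 10.64 in untreated NSPs. The groups again did not overlap. No untreated array of 0 h (10.78, 9.80 and 10.40) was as low as the highest TNF-treated array of 48 h (9.76) or 72 h (9.59). The highest TNF-treated arrays of 6 and 24 h (9.88 and 10.09) stood above the lowest array of 0 h, so those groups overlapped.

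The TNF difference of this probe set was -0.70, -1.37 and -1.25 at the first 3 times (SE 0.189 each) and -0.93 at 72 h (SE 0.211), and it was called from 24 h on. This equals 2.59 times as much signal in untreated as in TNF-treated NSPs at 24 h. Probe set 10546432 had the widest gap of the 6 at 24 h, with 8.81, 9.14 and 9.30 in TNF-treated NSPs and 11.08, 10.65 and 10.94 in untreated NSPs, a difference of -1.81 (SE 0.217), or 3.49 times as much in untreated NSPs. At 72 h the widest gap was that of probe set 10546450, with 9.03 and 9.07 in TNF-treated NSPs and 10.71, 10.35 and 10.76 in untreated NSPs, a difference of -1.55 (SE 0.215). In both cases all TNF-treated arrays lay below all untreated arrays.

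All 6 *Adamts9* probe sets were lower on every TNF-treated array than on any untreated array of the same time, where 8.55%, 14.2%, 12.2% and 41% of all probe sets did not overlap in either direction. Their differences ran from -0.95 to -0.70 at 6 h (3 called) and from -1.81 to -1.07 at 24 h (6 called). The range was -1.67 to -0.97 for 48 h and -1.55 to -0.83 for 72 h (6 called each). Of all probe sets, 0.326%, 0.863%, 1.04% and 1.15% were called at the 4 times. Called at 6 h were 10546434 (-0.76), 10546450 (-0.89) and 10546454 (-0.85). The probe sets moved together, with Pearson correlations over the 26 arrays of 0.962 to 0.996 and a median of 0.986. They share RNA, arrays and gene, so they count as 1 gene and not as 6 observations. At 72 h, 10546430, 10546432 and 10546452 were no longer called when any of the 4 arrays of 72 h named above was left out.

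**Figure D1:**
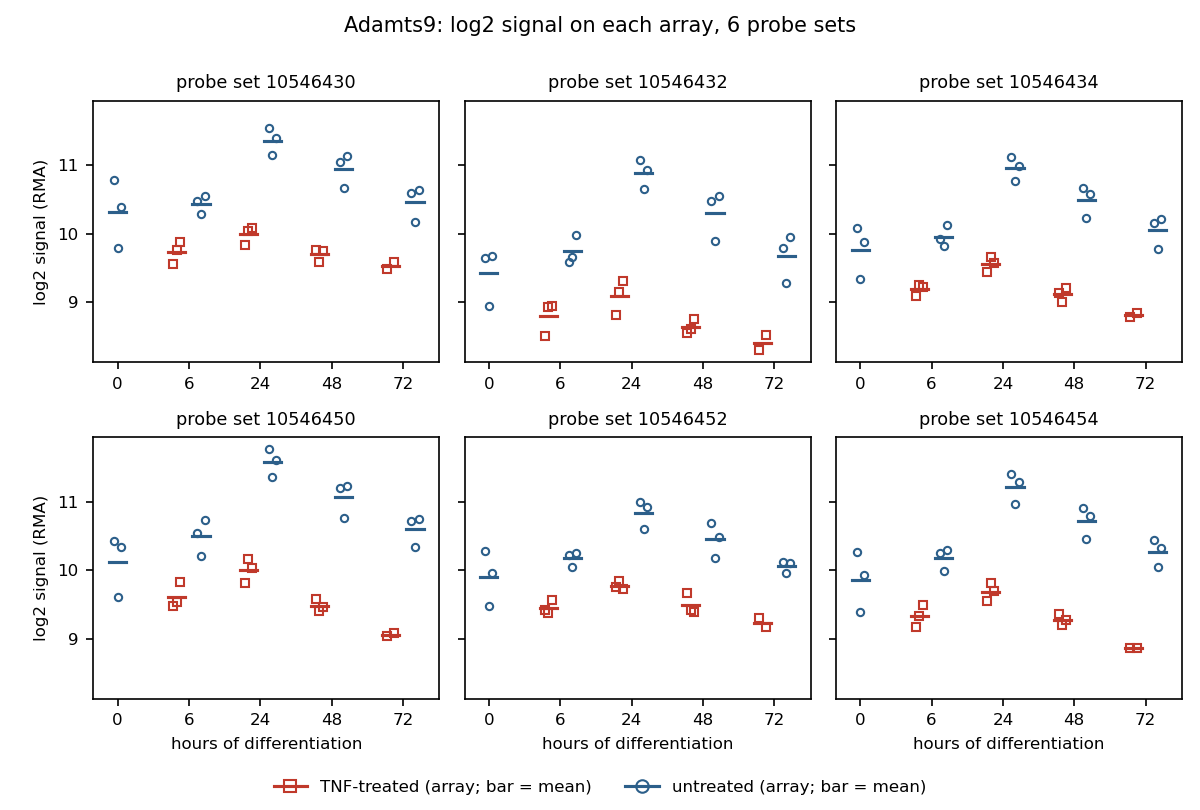
Log2 signal (RMA, y axis) of the 6 *Adamts9* probe sets on each array against hours of differentiation (x axis), with TNF-treated NSPs as red squares left of untreated NSPs as blue circles and bars at group means. In each panel all TNF-treated arrays lie below all untreated arrays of the same time, and untreated NSPs peak at 24 h.

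In untreated NSPs *Adamts9* rose to a peak at 24 h, with differences from 0 h of 0.94 to 1.47 on the 6 probe sets (all called). At 48 h they were 0.55 to 0.94 higher than at 0 h (all called), and at 72 h 0.14 to 0.48 higher, with only 10546450 called. Of all probe sets, 16.5%, 16% and 22.8% were called at 24, 48 and 72 h. In order of mean level on 10546430, untreated NSPs at 24 h (11.36) and 48 h (10.95) came first and TNF-treated NSPs at 72 h (9.53) last. Untreated NSPs at 72, 6 and 0 h followed each other with overlapping arrays (10.47, 10.44 and 10.32). TNF-treated NSPs also had their highest mean at 24 h (9.99), against 9.73 at 6 h and 9.70 at 48 h.

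The mean of the 8 astrocyte markers was lower in TNF-treated NSPs as well. At 24 h it was 11.55 to 11.78 in TNF-treated NSPs and 11.89 to 12.16 in untreated NSPs. At 48 h it was 11.72 to 11.93 in TNF-treated NSPs and 12.14 to 12.27 in untreated NSPs, and at 72 h 11.67 to 11.79 in TNF-treated NSPs and 12.04 to 12.26 in untreated NSPs. The groups did not overlap at these times, and 0 of the 8 markers was called. The markers did not all move alike, with 8, 6 and 5 of the 8 below 0 at 24, 48 and 72 h. At 72 h *S100b* averaged 8.07 in TNF-treated NSPs and 9.38 in untreated NSPs and *Gfap* 12.66 in TNF-treated NSPs and 13.54 in untreated NSPs, whereas *Slc1a3*, *Aldh1l1* and *Sox9* stood 0.08 or less above the untreated level. At 0 h the untreated mean was 10.86 to 11.60. The part of this shift in the *Adamts9* values was not tested.

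*Adamts16* (chromosome 13, 70727798 to 70841845), a protease reported to cleave fibronectin and best known from kidney and gonad, started low and rose in untreated NSPs. The untreated arrays of 24 h read 9.08, 10.14 and 9.92 and those of 72 h 9.55, 10.31 and 9.61, against 7.68, 7.35 and 6.79 at 0 h. Against 0 h it stood 2.44, 2.53 and 2.55 higher at 24, 48 and 72 h (SE 0.332 each, all called), the last equal to 5.86 times the signal. At 6 h it stood 0.57 higher, with overlapping arrays and no call.

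TNF-treated NSPs had *Adamts16* signals of 7.71, 8.31 and 8.83 at 24 h, against 9.08, 10.14 and 9.92 in untreated NSPs. The difference was -1.43 (SE 0.332) and called, and the groups did not overlap. At 48 h the arrays read 8.78, 8.99 and 9.07 in TNF-treated NSPs and 9.46, 10.51 and 9.45 in untreated NSPs, a difference of -0.86 (SE 0.332). At 72 h they read 9.11 and 9.29 in TNF-treated NSPs and 9.55, 10.31 and 9.61 in untreated NSPs, a difference of -0.62 (SE 0.371). Neither was called. The groups did not overlap at 48 and 72 h, as for 12.2% and 41% of all probe sets, and at 6 h the difference was -0.28 with overlap. The mean of TNF-treated NSPs thus reached 9.20 at 72 h, below 9.71 in untreated NSPs at 24 h. The 24 h call was lost without replicate 1 (-1.14) or 2 (-1.44) of TNF-treated NSPs, and without replicate 2 (-1.22) or 3 (-1.33) of untreated NSPs.

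*Adamts5* and *Adamts1* are neighbours on chromosome 16 (85858157 to 85901125 and 85793827 to 85803113), 55.0 kb apart with no protein-coding gene between them. The *Adamts5* product was first known as an aggrecanase, for its cleavage of aggrecan, and also cuts brevican and versican. *Adamts5* signals at 6 h were 9.05, 9.67 and 8.79 in TNF-treated NSPs and 7.89, 8.42 and 7.96 in untreated NSPs. The lowest TNF-treated array lay above the highest untreated array, and the difference of 1.08 (SE 0.163), or 2.12-fold, was called. At the 3 later times it was 0.21, 0.14 and 0.10, none of them called, with means of 7.93, 7.87 and 7.69 in TNF-treated NSPs and 7.71, 7.73 and 7.60 in untreated NSPs. Untreated NSPs also had their highest *Adamts5* level at 6 h, with a mean of 8.09 against 7.09 at 0 h (SE of the difference 0.163), and at later times stayed 0.51 to 0.65 above the 0 h level (called at all 4 times).

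*Adamts1* encodes a versican- and aggrecan-cleaving protease that also restrains blood vessel growth. At 6 h its signals were 10.78, 11.54 and 10.85 in TNF-treated NSPs and 9.69, 10.50 and 9.83 in untreated NSPs. The groups did not overlap, and the difference of 1.05 (SE 0.419) was close to that of *Adamts5*, but it was not called. Replicate 2 was the highest array in every group of 3. Between arrays of the same number the differences at 6 h were 1.09, 1.04 and 1.02, and with replicate number as a block the value was called (1.05, SE 0.128). The 3 later differences were 0.71, 0.55 and 0.32, with overlapping arrays and no call. Same-numbered arrays of 24 h differed by 0.66, 0.68 and 0.79. Those of 48 h differed by 0.48, 0.51 and 0.66, whereas the 72 h pairs gave 0.44 and -0.07. With the block, the 24 h value was called. So was the 48 h value, but not that of 72 h. Pairing after 6 h rests on the replicate numbers alone. In untreated NSPs *Adamts1* stood 1.60, 1.31, 1.41 and 1.41 above its 0 h level (7.93, 9.22 and 8.07) at 6, 24, 48 and 72 h (SE 0.419 each), and was called at all 4 times. Each of these 4 calls was lost when replicate 1 of 0 h was left out (1.36, 1.07, 1.17 and 1.18), and when replicate 2 of the later time was left out (1.35, 1.03, 1.07 and 1.07).

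*Adamts4* (chromosome 1, 171250129 to 171262267) encodes another aggrecanase, which cleaves brevican in brain. It was brightest on TNF-treated arrays of 6 h (9.12, 10.26 and 9.56), against 8.57, 9.63 and 9.32 in untreated NSPs. The groups overlapped here and at each later time, and the differences were 0.47 (SE 0.269), 0.43, 0.26 and 0.35 at 6, 24, 48 and 72 h, with no call. In untreated NSPs it fell by 0.88 at 48 h and by 1.10 at 72 h relative to 0 h (SE 0.269 each). The 72 h arrays read 7.81, 7.87 and 8.08, all below those of 0 h (8.83, 8.83 and 9.40).

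*Adamts20* (chromosome 15, 94268314 to 94432074), the closest relative of *Adamts9*, is the gene of the mouse belted coat and acts on versican around pigment cell precursors. At 6 h the arrays read 7.07, 6.54 and 7.10 in TNF-treated NSPs, against 6.81, 6.45 and 6.62 in untreated NSPs. At 72 h the TNF-treated arrays read 7.23 and 6.90, against 6.55, 6.29 and 6.40 in untreated NSPs. The differences were 0.28, 0.47, 0.41 and 0.66 at the 4 times (SE 0.169 to 0.188), all above 0 and none called. The groups did not overlap at 24 and 72 h, as for 14.2% and 41% of all probe sets. The sign is opposite to that of *Adamts9*, but all group means of *Adamts20* (6.41 to 7.07) lay below the lowest array median of 7.54. Whether signals this low stand above background was not tested.

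**Figure D2:**
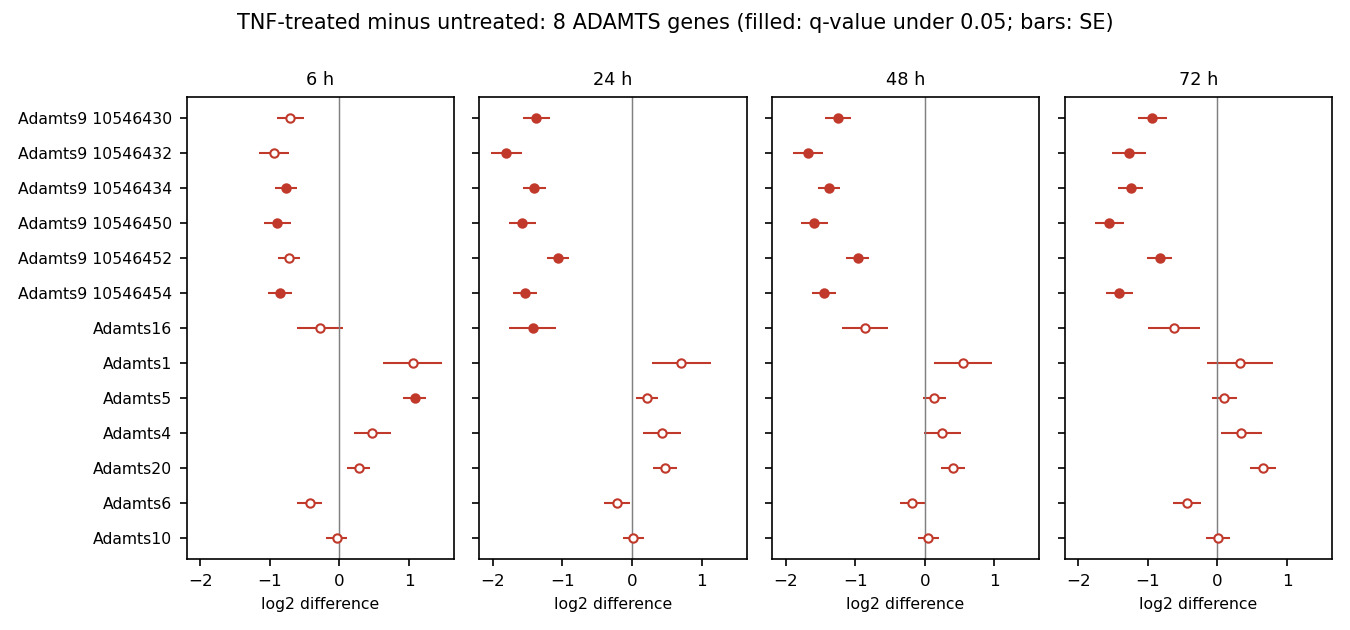
Log2 difference (x axis, TNF-treated minus untreated NSPs, with SE bars) of the 13 probe sets of 8 ADAMTS genes (rows) at 6, 24, 48 and 72 h (panels), with filled points where the q-value was under 0.05. The 6 *Adamts9* rows and *Adamts16* lie left of 0 at every time, *Adamts5* stands at 1.08 at 6 h and within 0.21 of 0 later, and *Adamts10* stays within 0.05 of 0.

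*Adamts6* (chromosome 13, 104286518 to 104496695) and *Adamts10* (chromosome 17, 33523646 to 33553782) form a pair within the family that is tied to fibrillin microfibrils. *Adamts10* is mutated in human Weill-Marchesani syndrome, and *Adamts6* is needed for heart development in the mouse. *Adamts10* differed least between TNF-treated and untreated NSPs of all 8 genes plotted by time. Its means at 6, 24, 48 and 72 h were 8.27, 8.37, 8.44 and 8.42 in TNF-treated NSPs and 8.31, 8.35, 8.39 and 8.41 in untreated NSPs. The arrays overlapped at all times, and each difference was smaller than its SE (0.148 to 0.166). In untreated NSPs *Adamts10* fell by 0.56, 0.51, 0.47 and 0.45 at 6, 24, 48 and 72 h relative to 0 h (SE 0.148 each), and no later array was as high as the lowest array of 0 h (8.73).

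*Adamts6* fell by 0.79 in untreated NSPs at 6 h relative to 0 h (SE 0.182), with 8.35, 8.52 and 8.62 against 9.06, 9.16 and 9.64. At 24 h it was again near the starting level (8.95, 9.24 and 9.17, a difference of -0.17), and at 72 h it was lower by a called difference of -0.47, which was lost without replicate 3 of 0 h (-0.29) and without any single array of untreated NSPs at 72 h (-0.42 to -0.49). With TNF the differences were -0.43, -0.22, -0.18 and -0.44 at 6, 24, 48 and 72 h, none called. At 72 h the TNF-treated arrays (8.34 and 8.43) lay below the untreated ones (8.87, 8.72 and 8.88). At that time 41% of all probe sets did not overlap.

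**Figure D3:**
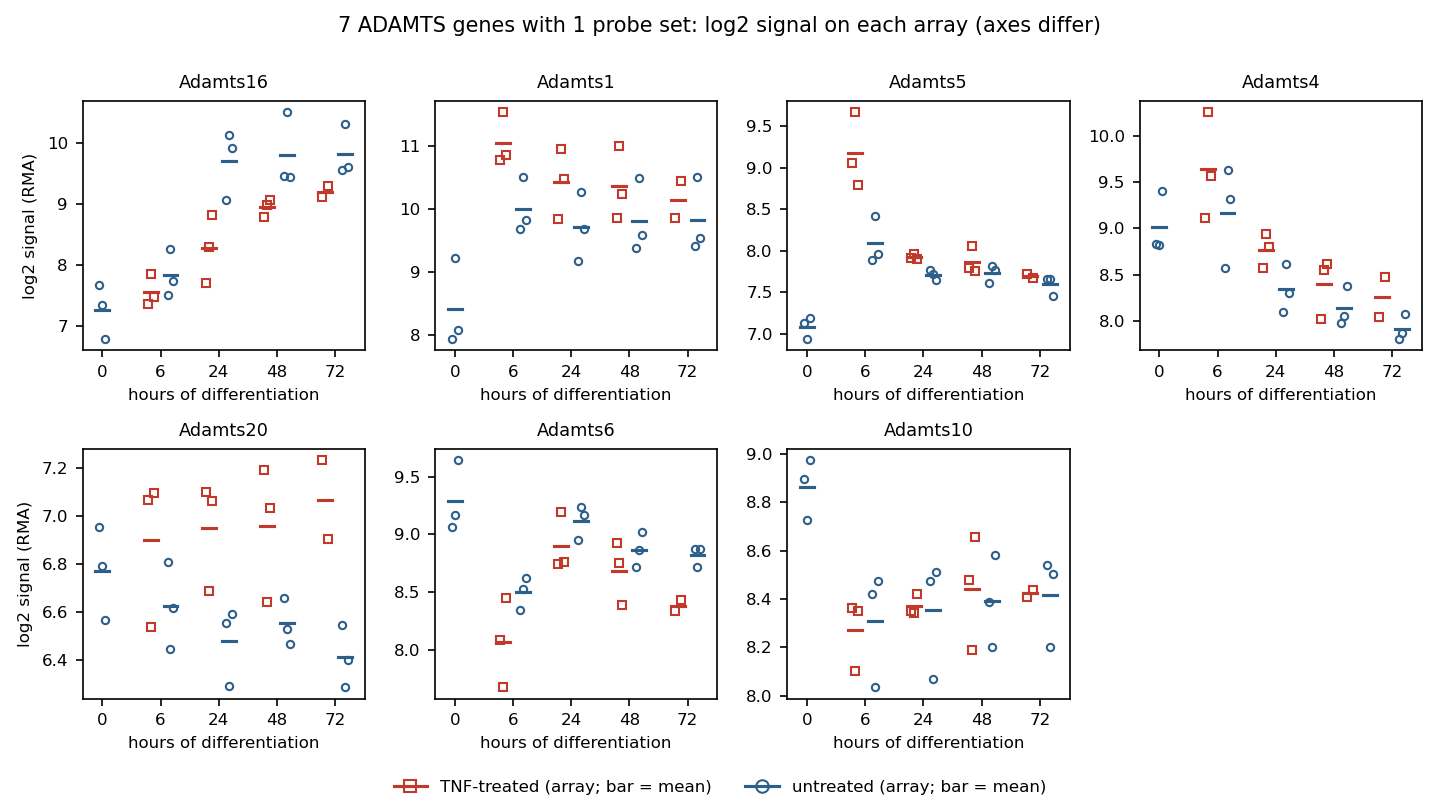
Log2 signal (RMA, y axes differ between panels) of the 7 ADAMTS genes with 1 probe set on each array, against hours of differentiation (x axis), with TNF-treated NSPs as red squares left of untreated NSPs as blue circles and bars at group means. *Adamts16* climbs to a mean of 9.82 in untreated NSPs at 72 h, *Adamts5* has its highest mean (9.17) in TNF-treated NSPs at 6 h, and *Adamts4* falls with time.

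*Adamts3* (chromosome 5, 89673841 to 89883668) encodes a procollagen N-propeptidase that also cleaves reelin and, with the cofactor CCBE1, activates the lymphatic growth factor VEGF-C. None of its 16 probe sets was called with TNF at any time. The differences ran from -0.16 to 0.12 at 6 h (median -0.02) and from -0.07 to 0.25 at 24 h (median 0.10). For 48 h the range was 0.08 to 0.68 (median 0.29), and for 72 h the highest value was 0.52 (median 0.22). They were above 0 on 7, 14, 16 and 15 of the 16 probe sets, which share RNA and gene. The median over all probe sets was -0.04, 0.01, -0.02 and -0.02 at the 4 times. The largest value, on 10531201 at 48 h, rested on 7.16, 7.05 and 6.79 in TNF-treated NSPs and 5.72, 6.94 and 6.30 in untreated NSPs (0.68, SE 0.23), with overlapping groups. These signals all lay below the lowest array median of 7.54.

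In untreated NSPs *Adamts3* was higher than at 0 h on all 16 probe sets at every time, with 8, 12, 10 and 9 of them called at 6, 24, 48 and 72 h. Medians of the differences were 0.51, 0.55, 0.45 and 0.44. On 10531195, the probe set with the largest difference at 24 h, the arrays read 7.45, 7.42 and 7.22 at 24 h and 5.97, 6.71 and 6.48 at 0 h, a difference of 0.98 (SE 0.22). Its signals too lay below 7.54 on these arrays. On 10531189 the difference at 24 h was only 0.11 (SE 0.11), with overlapping arrays. Correlations between the probe sets of *Adamts3* over the 26 arrays ran from 0.399 to 0.944 (median 0.777), so that they agree less closely than those of *Adamts9*.

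**Figure D4:**
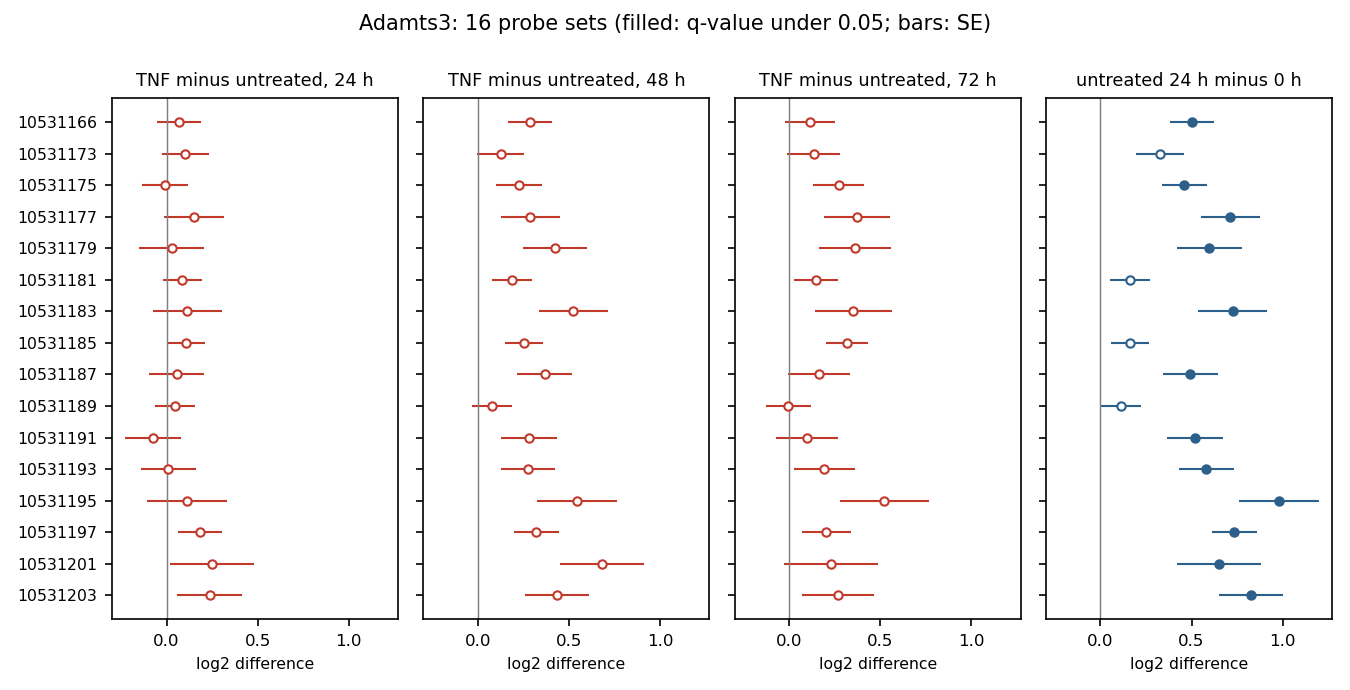
Log2 difference (x axis, with SE bars) of the 16 *Adamts3* probe sets (rows) for TNF-treated minus untreated NSPs at 24, 48 and 72 h and for untreated NSPs at 24 h minus 0 h (panels), with filled points where the q-value was under 0.05. No TNF difference is filled, the 48 h values all lie above 0, and 12 of the 16 untreated differences are filled, where 16.5% of all probe sets were called.

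Among 7 mural cell and fibroblast markers, 4 were above and 3 below 0 in untreated NSPs at 72 h relative to 0 h. Of these markers 2 were called, where 25.8% of all genes were called on 1 probe set per gene. The largest difference was that of the smooth muscle actin gene *Acta2*, which averaged 12.49 at 72 h and 8.40 at 0 h, and the mean of the 7 was 7.55 to 7.86 at 72 h and 6.73 to 7.16 at 0 h. The fibroblast genes *Dcn*, *Lum* and *Col6a3* were those below 0, and *Dcn* and *Lum* stayed at 6.60 and 5.42 or below on all arrays. Their part in the ADAMTS values was not tested.

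The 9 other ADAMTS genes measured are those that the choice left out, so their values are not independent of it. They were in the same fit. With TNF 1 of the 9 was called, *Adamts7*, a protease of cartilage oligomeric matrix protein, which was higher at 24 h. It averaged 9.32 ± 0.0372 in TNF-treated NSPs and 8.71 ± 0.167 in untreated NSPs (SD, n = 3 arrays each), a difference of 0.60 (SE 0.141, q = 0.0419 in limma). The call was lost when any of the 6 arrays was left out, with differences of 0.51 to 0.67. At 48 and 72 h the differences of *Adamts7* were 0.45 (q = 0.196) and 0.62 (q = 0.0565), and at 6 h -0.09 (q = 0.899). The 24 h effect was not shown to differ from that of 6 h (0.69, SE 0.199, q = 1 for the difference itself).

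*Adamts12*, the closest relative of *Adamts7*, had differences of -0.39, -0.52, -0.62 and -0.88 at 6, 24, 48 and 72 h (q = 0.894, 0.928, 0.527 and 0.18), with groups that did not overlap at 48 and 72 h, as for 12.2% and 41% of all probe sets. *Adamts14*, a procollagen propeptidase like *Adamts3*, had 0.65 at 24 h and 0.71 at 48 h (q = 1 and 0.733). *Adamts15*, a lectican-cleaving protease, had 0.30 at 6 h (q = 0.894). For *Adamts8*, *Adamts13*, *Adamts17*, *Adamts18* and *Adamts19* no difference on the brightest probe set of each exceeded 0.21 in size, and none was called. *Adamts17* has 5 probe sets. The others were not called with TNF either, and their largest difference was -0.27 (10554063 at 48 h, q = 0.714 in limma). The medians over the 9 genes were -0.09, 0.04, -0.12 and -0.05 at the 4 times.

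**Figure D5:**
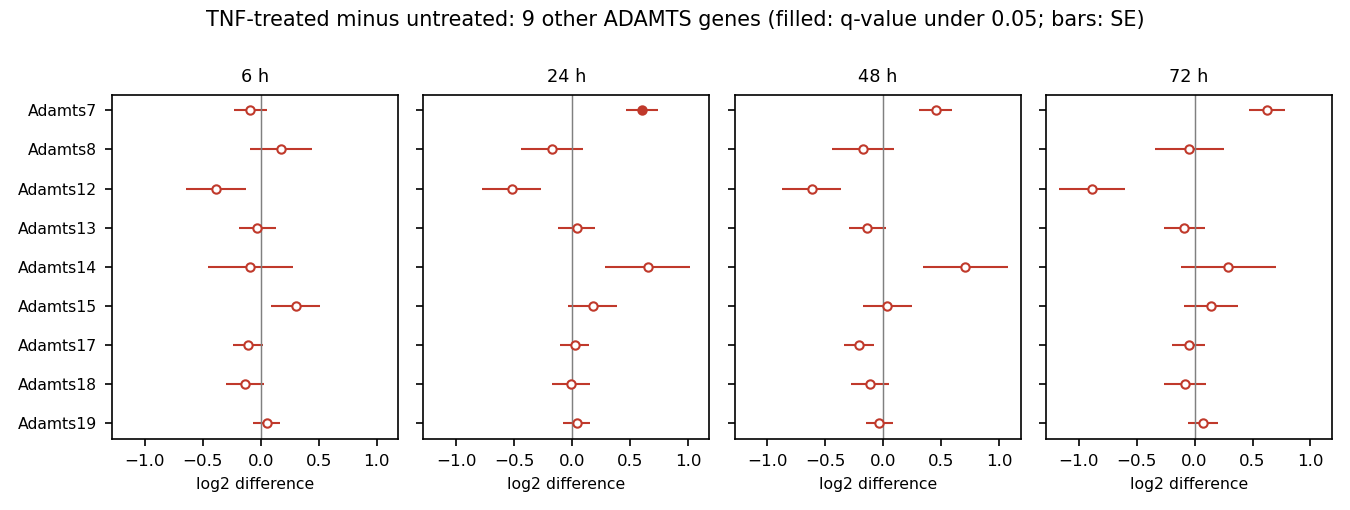
Log2 difference (x axis, TNF-treated minus untreated NSPs, with SE bars) of the 9 other measured ADAMTS genes (rows) at 6, 24, 48 and 72 h (panels), with filled points where the q-value was under 0.05. Only *Adamts7* at 24 h is filled (0.60).

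The partner genes are 60 measured genes whose products are ADAMTS-like proteins, substrates, cofactors, inhibitors, activators or ADAM relatives. Each was taken on its brightest probe set, and 2, 1, 3 and 1 were called with TNF at 6, 24, 48 and 72 h. On 1 probe set per gene, 0.517%, 1.26%, 1.49% and 1.53% of 19938 genes were called. The gene called at every time was *Has2*, a synthase of hyaluronan, the polysaccharide that lecticans bind. It averaged 9.64 ± 0.592 in TNF-treated NSPs and 7.39 ± 0.0350 in untreated NSPs at 6 h (SD, n = 3 arrays each), a difference of 2.25 (SE 0.27, q = 8.58e-05 in limma). Later differences were 2.18, 2.16 and 1.98 at 24, 48 and 72 h, with groups that did not overlap.

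*Sdc4*, which encodes the cell surface proteoglycan syndecan-4, a binding partner of ADAMTS proteases, rose by 1.17 at 6 h (SE 0.206, q = 0.00697). *Ccbe1*, the ADAMTS3 cofactor, fell by 1.06 at 48 h (SE 0.242, q = 0.0298), and averaged 8.26 in TNF-treated NSPs and 9.26 in untreated NSPs at 24 h (q = 0.0537), with a difference of -0.96 at 72 h (q = 0.101). *Pcsk6*, a proprotein convertase of the kind that removes ADAMTS prodomains, fell by 0.76 at 48 h (SE 0.176, q = 0.0343). These 3 calls depended on single arrays. *Sdc4* was not called without replicate 1 or 3 of untreated or replicate 1 or 2 of TNF-treated NSPs, *Ccbe1* without 5 of the 6 arrays of 48 h (all but replicate 3 of untreated NSPs), and *Pcsk6* without replicate 1 or 2 of untreated or replicate 2 or 3 of TNF-treated NSPs. On the brightest probe set of each gene, no ADAMTS-like gene (7 measured) and no ADAM gene (11 measured) was called. *Adamtsl1*, an ADAMTS-like gene, has a further probe set, 10505734, which was called lower at 48 and 72 h. Its differences were -0.40 (SE 0.0956, q = 0.0409 in limma) and -0.45 (SE 0.107, q = 0.0413), with groups that did not overlap.

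The following were chosen for their role, after their values had been seen. *Ncan* (neurocan) averaged 13.13 in TNF-treated NSPs and 13.32 in untreated NSPs at 24 h, *Bcan* (brevican) 11.97 with TNF and 12.42 untreated, *Vcan* (versican) 10.43 with TNF and 10.40 untreated, and *Acan* (aggrecan) 6.48 with TNF and 6.43 untreated. None of these was called at any time. *Timp3*, the tissue inhibitor that acts on ADAMTS4 and ADAMTS5, averaged 11.45 in TNF-treated NSPs and 12.25 in untreated NSPs at 48 h (difference -0.80, q = 0.497), and *Reln*, the reelin gene, 9.34 in TNF-treated NSPs and 10.45 in untreated NSPs at 72 h (difference -1.11, q = 0.178).

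The gene whose 9 group means were most like those of a member was found among probe sets with 1 gene symbol whose means spanned at least 1 log2 unit, as a description over means that share arrays. These were 2774 or 2775 candidates per member, so a high correlation is easily found among them. The members did not have to meet this span, and *Adamts3*, *Adamts10* and *Adamts20* spanned only 0.84, 0.59 and 0.66. For *Adamts10* only the 0 h arrays stood apart from the rest. For *Adamts9* the most alike genes were *Ankrd34c* (Pearson r 0.992), *Gria2*, a glutamate receptor subunit (0.965), and *Trps1* (0.931). For *Adamts16* they were *Gabrb1*, a GABA receptor subunit (0.988), *Atrn* (0.986) and *Mboat7* (0.984). For *Adamts1* they were *Jcad* (0.987), the immediate early gene *Klf6* (0.986) and the hyaluronan-degrading *Cemip* (0.977). For *Adamts5* they were *Snx16* (0.973), *Vasn* (0.961) and *Steap1* (0.955), and for *Adamts3* *Camk2d* (0.988), *Kank2* (0.974) and *Bcl2l1* (0.972). *Adamts4* went with *Plk3* (0.981), *Pdia5* (0.977) and *Prdm1* (0.975), and *Adamts6* with *Ccdc136* (0.938), *Tpcn1* (0.931) and *Pxmp4* (0.929). *Adamts10* went with *Egr1* (0.98), *Epn2* (0.978) and *Adm* (0.967), and *Adamts20* with *Plekhf1* (0.97), *Dusp15* (0.955) and *Relb* (0.952).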

How the data were processed

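The authors hybridised RNA of NSPs to Affymetrix MoGene 1.0 ST arrays and deposited log2 signals made by RMA (oligo, R 3.3.1), which corrects background, quantile-normalizes arrays and summarizes probes. Versions of oligo and RMA were not given in the sources used here. Values were used as deposited. limma 3.58.1 in R 4.3.3 fitted 1 mean for each of 9 groups over 26 arrays. Called means a q-value (Storey's smoother, own implementation) under 0.05. Named were all member probe sets, all other measured ADAMTS genes, partner genes called with TNF, and the 3 genes most like each member. *Acta2*, *Dcn*, *Lum*, *Ptprc*, *Ncan*, *Bcan*, *Vcan*, *Acan*, *Timp3*, *Reln*, *S100b*, *Gfap*, *Slc1a3*, *Aldh1l1*, *Sox9* and *Col6a3* were added after their values were seen. So were *Olig1*, *Olig2*, *Pdgfra*, *Sox10*, *Mbp* and *Map2*. Members and lists were chosen with earlier results of these data known. *Adamts2*, *Fbn1* and *B3galtl* were among the listed genes not analysed here. No pair of arrays was identical (r 0.947 to 0.996). After removal of group means, same-numbered TNF-treated and untreated arrays correlated at 0.674, 0.559 and 0.461 over all probe sets at 6 h, so replicate numbers were taken to pair the arrays there, but not at 24 h (0.384, 0.471 and 0.0263), 48 h (0.309, 0.608 and -0.0238) or 72 h (0.0795 and -0.0156). The second TNF-treated array of 72 h is titled replicate 2 but was listed with the replicate 3 arrays, so its number is less certain and the block was also fitted without it. Coordinates are those of RefSeq GRCm38.p6. The code was tested on simulated data. Alternatives were other thresholds, arrays, weights, normalization, a filter on dim probe sets, the replicate block, and leaving out each array.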

Additional observations from a re-analysis of the deposited data

How the results depend on the processing

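No difference named in the report changed sign across a call. The count of 29 member probe sets called with TNF at 6 h (4) was 1 at a q-value under 0.01, 1 with a log2 difference of at least 1, 0 with only the arrays compared, 7 with array weights, and 8 with the replicate block, also with the second TNF-treated array of 72 h left out (8). The shares of all probe sets called at 6 h were 0.219%, 0.16%, 0.0309%, 2.82%, 0.613% and 0.605% in this order, against 0.326%. At 72 h array weights gave 13 against 6, where 14.4% and 1.15% of all probe sets were called. In the untreated course a q-value under 0.01 gave 6, 11 and 8 at 6, 48 and 72 h, a log2 difference of at least 1 gave 2, 7, 2 and 3 in the order of the times, only the arrays compared gave 0, 13, 3 and 5, and array weights gave 7 at 6 h. Of 9 other ADAMTS genes, the 1 called at 24 h was 0 at a q-value under 0.01 (0.487% of all probe sets) and with a log2 difference of at least 1 (0.337%). It was 0 with only the arrays compared (0.759%), and 2 with array weights (3.54%). At 48 h the count was 1 with array weights (1.71%) and with either replicate block (1.97% and 2.05%). At 72 h it was 2 with only the arrays compared (6.22%) and 2 with array weights (14.4%). It was 1 without dim probe sets (2.72% of those kept) and 1 with the replicate block (3.32%). Of 60 partner genes, only the arrays compared gave 0, 2, 1 and 10 in that order, array weights gave 8 at 24 h and 14 at 72 h, leaving out dim probe sets gave 2 at 24 h, a q-value under 0.01 gave 1 at 48 h, cyclic loess gave 2 at 72 h, and the replicate block gave 2, 5 and 5 at 24, 48 and 72 h, or 3 and 5 at 24 and 48 h without the second TNF-treated array of 72 h.

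Each array was left out in turn, and counts were taken only for the comparisons that use its group. The member counts with TNF then ranged from 1 to 4, 6 to 7, 6 to 8 and 3 to 6 in the order of the times. Those of the untreated course ranged from 5 to 15, 17 to 23, 11 to 20 and 7 to 15. Those of the other ADAMTS genes were 0 in every such fit, and those of partner genes 1 to 2, 1, 1 to 3 and 1. Pairing outside 6 h rests on the numbers alone. With the block, *Adamts1* was also called at 24 and 48 h and *Adamts20* at 24 and 72 h. The cause of these changes was not tested. The small number of arrays limits precision, and a difference that was not called is not shown to be absent.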

Other observations

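In the untreated course, several ADAMTS genes outside the 9 described moved as well. *Adamts7* fell by 0.62, 1.30, 1.18 and 1.26 at 6, 24, 48 and 72 h relative to 0 h (SE 0.141 each, largest q = 0.00701 in limma), and *Adamts12* by 0.82, 1.53, 1.37 and 1.24 (SE 0.257 each, largest q = 0.0458). *Adamts15* rose by 1.22 at 6 h (SE 0.211, q = 0.000612) and was not called later. *Adamts8* rose by 1.01 at 6 h and by 0.76 at 72 h (SE 0.268, q = 0.0179 and 0.0267). *Adamts19* rose by 0.62 at 6 h (q = 0.00154) and fell by 0.47 at 72 h (q = 0.00346, SE 0.117 each). In all, on the brightest probe set of each, 5, 4, 4 and 4 of the 9 genes were called at the 4 times, against 10.2%, 18.8%, 18.8% and 25.8% of all genes. These comparisons share the 3 arrays of 0 h. *Adamts8* and *Adamts15* are neighbours on chromosome 9, 20.1 kb apart with no gene between them.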
